A study of Homo sapiens with 3 samples.

Results

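The numbered ZNF genes are the human genes whose symbol is ZNF followed by a number. Most of them encode C2H2 zinc finger proteins, in which tandem fingers, each folded around a zinc ion, read the bases of DNA. Many also carry a KRAB domain, which binds the corepressor TRIM28 and through it the histone methyltransferase SETDB1 and HP1 proteins. By this route KRAB zinc finger proteins silence endogenous retroviruses and other transposable elements, and the genes themselves lie in large clusters, above all on chromosome 19. Other members bind promoters, belong to chromatin complexes or act on RNA and ribosomes.

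The genes were measured in KYSE150, an established cell line from a human oesophageal squamous cell carcinoma, on 3 Affymetrix arrays. The cells carried a pcDNA3.1 plasmid with LOXL2 delta72, the same plasmid with LOXL2 WT, or the empty vector as control, and RNA was taken 48 h after transfection. LOXL2 is lysyl oxidase like 2, an amine oxidase that crosslinks collagen and elastin. The labels do not describe the delta72 form further. Because each condition had 1 array, no difference has a replicate check, no test was possible and no p-value is given. Differences below are differences of log2 intensity, and a fold of 1.5 is a size, not a significance call. The arrays read whole cultures, so a large difference in some cells and a small one in all of them cannot be told apart.

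Of 18132 genes named by a single-symbol probe set, 451 were numbered ZNF genes. Each gene was represented by its brightest probe set, and a gene was kept when the mean of that probe set over the 3 arrays reached log2 5.27, the 40th percentile of all probe sets. This left 291 numbered ZNF genes, 64.5% of the 451, among 12232 genes kept, 67.5% of the 18132. Among the numbered ZNF genes, the members were therefore selected on the mean level over the 3 arrays and not on the differences between them. That level is not a finding here. The numbered ZNF genes as a group were chosen with earlier results of these data known. Their contrasts with all genes below are therefore not those of a set picked without knowledge of these arrays. Just above the limit lay ZNF225, with log2 5.40 with delta72, 5.31 with WT and 5.17 in control, and ZNF624, with 5.21, 5.32 and 5.35 in the same order of arrays. Just below it lay ZNF671, with log2 5.22, 5.33 and 5.22, and ZNF792, with log2 5.31, 5.12 and 5.27. Of the 291 genes, 7 were under the limit on at least 1 array. Among the 7 was ZNF674, with log2 5.45 with delta72, 5.78 with WT and 5.15 in control, so it passed through the LOXL2 arrays. ZNF674 is also among the members at least 1.5-fold higher with WT. RefSeq placed 123 of the 291 on chromosome 19, 24 on chromosome 7, 24 on chromosome 16 and 16 on chromosome 1.

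For LOXL2 the brightest probe set read log2 14.06 with delta72, 14.05 with WT and 7.46 in control, and 3 of its 4 probe sets were higher on both LOXL2 arrays. The other ran the opposite way, with 8.66 with delta72, 8.32 with WT and 8.81 in control. The brightest probe set sets the LOXL2 arrays apart from control and does not check the delta72 and WT labels against each other. Over all probe sets the medians were 5.94 with delta72, 5.93 with WT and 5.95 in control. Over the 12232 genes kept they ran the other way, 7.98 with delta72, 7.99 with WT and 7.95 in control. All 4 squamous markers that had a probe set of their own passed the limit (KRT5, KRT14, DSG3 and SFN), against 1 of 5 fibroblast, 1 of 4 leukocyte and 2 of 3 endothelial markers. The log2 values of the squamous markers summed to 39.1 with delta72, 39.5 with WT and 40.1 in control. KRT14 was 0.66 below control with delta72 and 0.67 below it with WT. KRT5 and SFN were also lower with both forms, while DSG3 was 0.22 and 0.34 higher. In the same order of arrays the sums were 22.6, 22.8 and 23.1 for fibroblast, 16.4, 16.5 and 16.9 for endothelial and 15.3, 15.1 and 15.1 for leukocyte markers.

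The promoters below belong to members of the 2 runs of neighbouring genes that the results return to. They are the 250 bases before the RefSeq start of ZNF555, ZNF57 and ZNF77, genes of 1 run on chromosome 19 (GRCh38.p14) in which ZNF556 lies between ZNF555 and ZNF57, and the 83 bases between the divergent starts of ZNF425 and ZNF398 on chromosome 7. Capitals mark CCAAT, the letters of the box bound by the factor NF-Y, on either strand in the first 3 sequences, and GGGCGG, the letters of the GC box, on either strand in the last. ZNF555 is chr19:2841225-2841474 on the plus strand, ZNF57 is chr19:2900678-2900927 on the plus strand, at the start with the more CCAAT copies of the pair RefSeq lists, ZNF77 is chr19:2944972-2945221 on the minus strand, and the stretch between ZNF425 and ZNF398 is chr7:149126325-149126407, printed from the minus strand.
ZNF555: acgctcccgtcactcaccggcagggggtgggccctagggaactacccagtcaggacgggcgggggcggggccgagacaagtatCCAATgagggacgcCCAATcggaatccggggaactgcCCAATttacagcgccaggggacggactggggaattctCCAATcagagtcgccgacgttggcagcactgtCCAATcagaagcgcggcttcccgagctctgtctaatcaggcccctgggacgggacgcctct
ZNF57: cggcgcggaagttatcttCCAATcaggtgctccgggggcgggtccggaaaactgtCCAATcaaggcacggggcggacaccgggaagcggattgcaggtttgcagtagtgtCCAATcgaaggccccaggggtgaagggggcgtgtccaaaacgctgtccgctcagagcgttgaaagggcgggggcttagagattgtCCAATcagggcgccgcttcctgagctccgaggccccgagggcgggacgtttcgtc
ZNF77: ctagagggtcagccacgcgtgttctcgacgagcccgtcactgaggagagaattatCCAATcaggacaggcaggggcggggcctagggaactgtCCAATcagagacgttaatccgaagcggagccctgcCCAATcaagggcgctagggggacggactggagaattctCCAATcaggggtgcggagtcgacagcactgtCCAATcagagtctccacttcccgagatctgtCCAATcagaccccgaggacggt
ZNF425 to ZNF398: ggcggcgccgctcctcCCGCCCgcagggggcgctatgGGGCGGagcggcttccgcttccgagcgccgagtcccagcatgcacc

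With LOXL2 WT the numbered ZNF genes lay higher than in control more often than other genes did. Their median difference was 0.15, against -0.01 for all 12232 genes, and the middle 50% of them ran from -0.06 to 0.32, against -0.15 to 0.15 for all genes. WT was above control for 196 of the 291 and below it for 95, that is 67.4% higher, against 48.0% of all genes. At least 1.5-fold higher were 23 members, 7.90%, against a background of 1.85% of all genes. At least 1.5-fold lower were 2 members, 0.687%, against 0.867% of all genes. Past 2-fold was ZNF425, against 0.18% of all genes higher and 0.0981% lower by that much. With the arrays shifted to a common median over the genes kept, 16 members were at least 1.5-fold higher, 5.50%, against 1.38% of all genes, and 1.14% of all genes were lower by that much.

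The same genes gave a smaller difference with LOXL2 delta72. The median of delta72 minus control was 0.10, against 0.00 over all genes, and 193 members were higher and 97 lower. That is 66.3% higher, against 49.7% of all genes. At least 1.5-fold higher were 14 members, 4.81%, against a background of 1.28%, and 0 were at least 1.5-fold lower, against 0.499% of all genes. After the same shift 10 members were at least 1.5-fold higher, 3.44%, against 1.01% of all genes. None of the 291 reached 2-fold with delta72, against 0.123% of all genes higher and 0.0164% lower by that much. Both comparisons use the control array, so a reading that was low on that array lowers the control in both of them, and the counts are given side by side without a measure of their likeness.

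**Figure D1:**
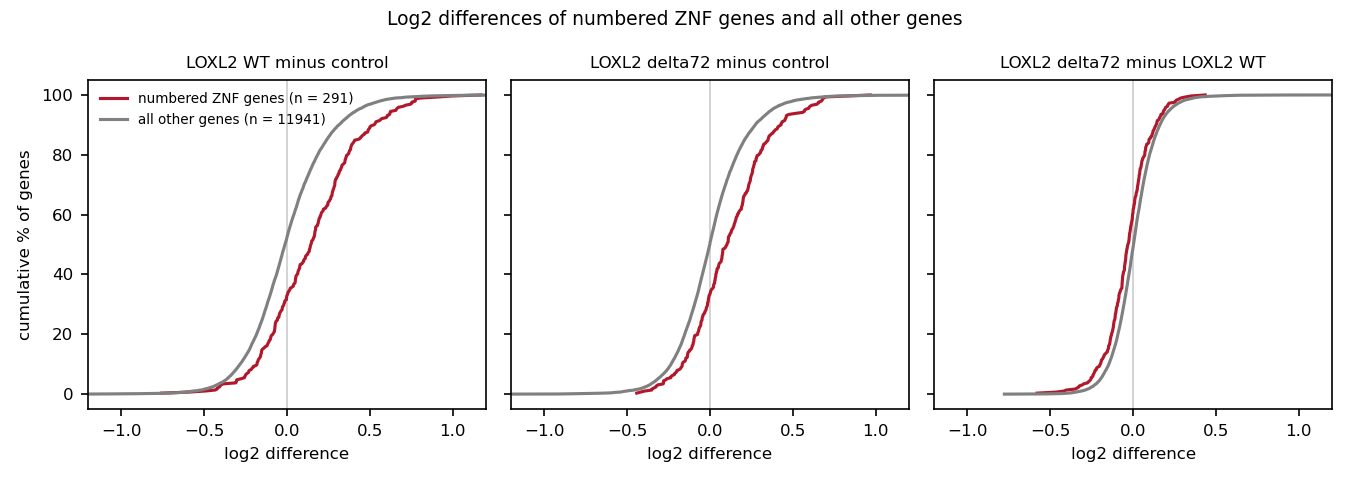
Cumulative percent of genes (vertical axis) against log2 difference (horizontal axis, drawn from -1.2 to 1.2) for the 291 numbered ZNF genes in red and all 11941 other genes above the limit in grey, in each of the 3 comparisons. The red line lies right of the grey line in both comparisons with control, with medians of 0.15 and 0.10, and slightly left of it in delta72 minus WT, with a median of -0.03.

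The member with the widest difference was ZNF425, a KRAB zinc finger gene. It read log2 6.54 with delta72, 6.74 with WT and 5.57 in control, so both LOXL2 arrays stood well above control. That is 2.25-fold higher with WT (log2 1.17) and 1.95-fold higher with delta72 (0.97). Its other probe set was too dim to pass the limit and did not show the difference. It lay level with control with delta72 and slightly below control with WT. The median of the differences of both probe sets was 0.48 with delta72 and 0.51 with WT. ZNF398, which shares the promoter stretch shown above, encodes a KRAB zinc finger protein reported to bind estrogen receptor alpha. It read 7.49 with delta72, 7.82 with WT and 7.04 in control. Its differences were 0.45 with delta72 and 0.77 with WT, with SDs of 0.11 and 0.21 over 3 probe sets.

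Other members high on the WT array fell into the same order, control lowest and delta72 between. ZNF181 read log2 5.91 with delta72, 6.33 with WT and 5.34 in control, a WT difference of 0.99 from 1 probe set. ZNF557 read 7.65 with delta72, 7.91 with WT and 6.997 in control, a WT difference of 0.91. For ZNF557 the median of the differences of all its probe sets was smaller, 0.21 with delta72 and 0.53 with WT. ZNF571 read 5.98 with delta72, 6.13 with WT and 5.33 in control, 0.80 higher with WT (SD 0.13 between probe sets). The control readings of ZNF181 and ZNF571 lay close to the limit of log2 5.27, at the dim end of the genes kept.

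The best measured of the higher members had several probe sets that moved together. ZNF292, a large zinc finger protein first described, in rat, at the growth hormone promoter and found mutated in tumours, read log2 8.67 with delta72, 8.91 with WT and 8.16 in control. Its differences were 0.51 ± 0.09 with delta72 and 0.75 ± 0.08 with WT, with 4 probe sets above the limit. Here and below, the value before ± is the difference on the brightest probe set and not a mean over probe sets. The value after ± is the SD of the difference between probe sets above the limit on the same arrays. For ZNF292 the median of the differences of all its probe sets was 0.64 with delta72 and 0.84 with WT. ZNF140, a KRAB repressor gene, read 8.54 with delta72, 8.69 with WT and 7.93 in control, or 0.60 ± 0.05 with delta72 and 0.75 ± 0.06 with WT over 3 probe sets. ZNF35 read 7.46 with delta72, 7.52 with WT and 6.78 in control. On ZNF292, ZNF140 and ZNF35 the control array was the lowest by more than the spread between probe sets. That spread covers probes only and includes neither culture nor hybridisation error.

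Probe sets differed in size or direction for other members. ZNF10, also known as KOX1, whose KRAB domain is the repressor domain used in CRISPR interference, read log2 6.36 with delta72, 6.45 with WT and 5.68 in control on its brightest probe set. All 3 probe sets were above control, and the median of their differences was 0.43 with delta72 and 0.27 with WT. ZNF789 was the member farthest below control with WT, reading 7.34 with delta72, 7.03 with WT and 7.79 in control. Its WT difference of -0.76 had an SD of 1.01 between 2 probe sets, and the median of their differences was -0.04. Across the 158 members with more than 1 probe set above the limit, all probe sets pointed 1 way for 98 with WT, 72 of them higher and 26 lower. With delta72 they did so for 99, 72 higher and 27 lower. Of the members at least 1.5-fold different with WT, 15 had more than 1 such probe set, and 14 of these pointed 1 way. With delta72 it was 7 of 7. Agreement between probe sets was not counted over all genes, so these counts cannot be read as particular to the members. The probe sets of a gene were read on the same arrays and are not replicates.

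**Figure D2:**
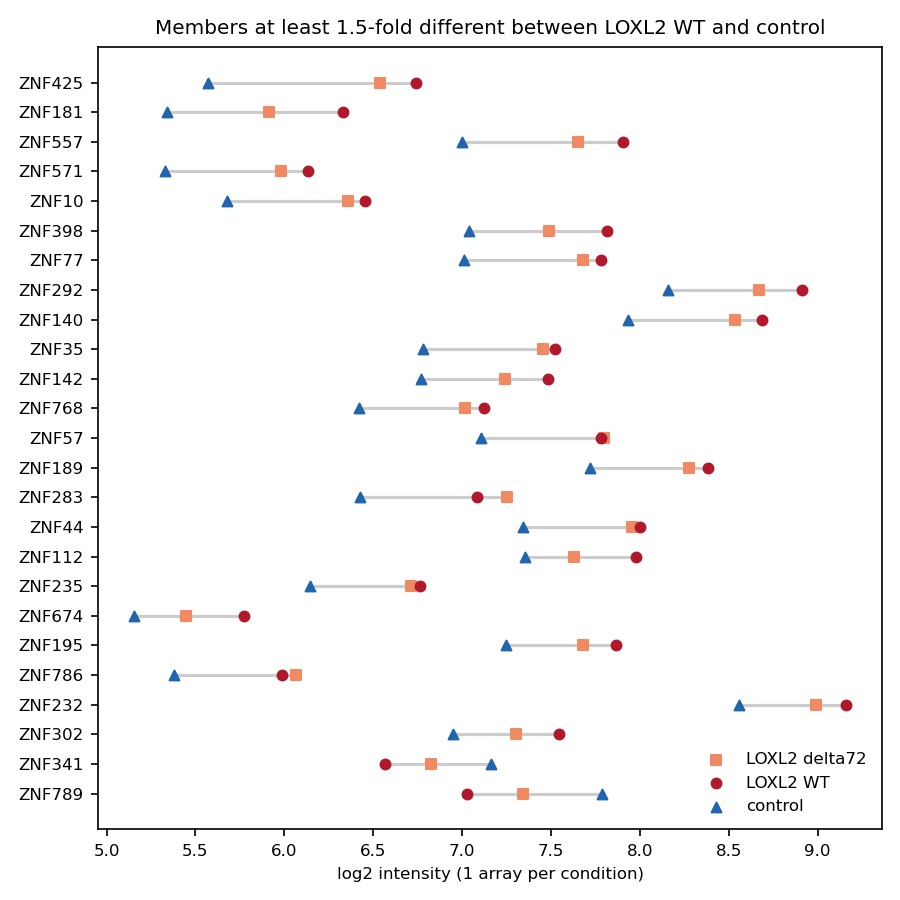
Log2 intensity on the 3 arrays (horizontal axis) for the 25 numbered ZNF genes at least 1.5-fold different between LOXL2 WT (red circles) and control (blue triangles), with LOXL2 delta72 as orange squares and a grey line spanning each gene's readings. The delta72 reading lies between the other two in most genes and beyond WT in ZNF57, ZNF283 and ZNF786.

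On the brightest probe set delta72 exceeded WT for some of the members high in both comparisons with control. ZNF283 read log2 7.25 with delta72, 7.08 with WT and 6.42 in control, which is 0.83 and 0.66 above control. ZNF786 read 6.07 with delta72, 5.98 with WT and 5.38 in control. ZNF555 read 6.89 with delta72, 6.77 with WT and 6.24 in control. These gaps between the forms were no clearer than the spread between probe sets. For ZNF283 delta72 minus WT was 0.17 with an SD of 0.19, and its median over all its probe sets was 0. For ZNF786 and ZNF555 it was 0.08 and 0.11, against a pooled SD between probe sets of 0.11 over all genes. For ZNF786 the difference was 0.40 with delta72 and 0.33 with WT once probe sets that the array design marks as able to cross-hybridise were left out. Such probe sets represented 87 of the 291 members. Their median difference was 0.13 with WT and 0.04 with delta72, against 0.15 and 0.12 for the other 204.

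Members lower in both comparisons were fewer and their differences smaller. ZNF219, a zinc finger factor reported to work with SOX9 in cartilage, read log2 8.76 with delta72, 8.69 with WT and 9.11 in control. Its differences were -0.35 ± 0.04 with delta72 and -0.42 ± 0.06 with WT over 3 probe sets. ZNF512 read 9.22 with delta72, 9.14 with WT and 9.54 in control, or -0.33 ± 0.05 with delta72 and -0.40 ± 0.06 with WT over 3 probe sets. For ZNF219 and ZNF512 both LOXL2 arrays lay below control by several times the spread between probe sets. ZNF341, whose product drives STAT3 transcription, read 6.82 with delta72, 6.57 with WT and 7.16 in control, a WT difference of -0.59. ZNF318 read 6.94 with delta72, 6.89 with WT and 7.29 in control, and the median of its probe set differences was -0.19 with delta72 and -0.34 with WT.

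Between the LOXL2 forms the members differed little. The median of delta72 minus WT was -0.03, against 0.00 for all genes, with 112 members higher and 177 lower, so 60.8% were lower, against 49.3% of all genes. No member was 1.5-fold higher or lower, against 0.18% and 0.0409% of all genes, and at 2-fold the background was 0.0164% higher and 0% lower. This comparison and WT minus control share the WT array. The lowest member was ZNF124, a KRAB zinc finger gene, which read log2 5.25 with delta72, 5.83 with WT and 5.38 in control, a difference of -0.58. Its delta72 reading lay under the limit of log2 5.27. It rests on 1 probe set, of the kind marked as able to cross-hybridise. ZNF440 read 10.47 with delta72, 10.93 with WT and 10.64 in control, or -0.46 ± 0.14 over 3 probe sets, with WT as the array that stood apart. ZNF827, which recruits the NuRD complex to telomeres in cells that lengthen them without telomerase, read 6.60 with delta72, 7.01 with WT and 6.65 in control. Its difference between the forms was -0.40 ± 0.13 over 3 probe sets, and the median over all its probe sets was -0.19. The highest member was ZNF497, which read 5.86 with delta72, 5.43 with WT and 5.73 in control, a difference of 0.43, with a median over its probe sets of 0.28. ZNF155 was 0.28 ± 0.07 higher with delta72 than with WT over 4 probe sets.

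By known role, the members that act on retroelements and heterochromatin had the highest median with WT when each gene was read on its brightest probe set. Of 12 listed genes 6 were above the limit, with a median difference of 0.31 with delta72 and 0.43 with WT, and 5 of the 6 were higher than control in each. ZNF765 was 0.46 higher with delta72 and 0.57 higher with WT, with SDs of 0.27 and 0.35 between 2 probe sets, and the median of the differences of all its probe sets was 0.16 with delta72 and 0.30 with WT. ZNF274, which brings SETDB1 to the 3' ends of zinc finger genes, read log2 8.91 with delta72, 8.99 with WT and 8.49 in control. Its probe sets disagreed, and the median of their differences was -0.02 with delta72 and 0.05 with WT. ZNF445, a guardian of genomic imprints, was 0.21 higher with delta72 and 0.36 higher with WT, with SDs of 0.46 and 0.44 between 2 probe sets and medians over all its probe sets of 0.07 and 0.20. ZNF10, also in the list, had medians over its probe sets of 0.43 with delta72 and 0.27 with WT. For ZNF10, ZNF765, ZNF274 and ZNF445 these medians were smaller than the differences on the brightest probe set. The rank of the list therefore rests on the choice of probe set. ZNF331 was the member of the list below control in both.

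Members in the other role lists lay nearer to the median of all genes. The promoter-binding activators, 10 of 11 above the limit, had medians of 0.06 with delta72 and 0.04 with WT. Among them ZNF131 was 0.35 higher with delta72 and 0.45 higher with WT, ZNF335, a subunit of a histone H3 lysine methyltransferase complex and a microcephaly gene, was 0.32 and 0.35 higher, and ZNF143, which binds promoters at ACTACAA letters, was 0.15 and 0.24 below control. The chromatin and corepressor members, 10 of 11 above the limit, had medians of 0.01 with delta72 and 0.09 with WT. ZNF532 was the highest of them with delta72 and read log2 8.35 with delta72, 8.29 with WT and 7.89 in control.

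The members that act on RNA, ribosomes and mitosis were all above the limit, 13 of 13, with medians of -0.00 with delta72 and 0.13 with WT. ZNF326, a subunit of the DBIRD complex that couples transcription to splicing, read log2 9.20 with delta72, 9.40 with WT and 8.84 in control. Its differences were 0.36 ± 0.11 with delta72 and 0.56 ± 0.06 with WT over 3 probe sets. ZNF593, whose yeast counterpart acts on the large ribosomal subunit, was 0.34 and 0.43 higher. ZNF473, a factor of histone pre-mRNA processing, was 0.37 ± 0.11 higher with delta72 and 0.38 ± 0.08 higher with WT. ZNF318 was the lowest of this list.

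Of the epithelial, tumour and hypoxia members 8 of 11 were above the limit, with medians of 0.25 with delta72 and 0.18 with WT, and 7 of the 8 were higher in each. Below the limit here was ZNF750, a regulator of squamous differentiation. ZNF292, described above, was the highest with WT. ZNF365, which guards against replication stress, was the highest with delta72 and read log2 6.67 with delta72, 6.48 with WT and 6.08 in control. This rests on 1 probe set, and the median of the differences of all 8 was 0.06 with delta72 and 0.08 with WT. ZNF185, an actin-associated LIM domain protein of epithelia, read 8.04 with delta72, 7.83 with WT and 8.14 in control. It was the member of the list that stood lower with both forms, and the median of its probe set differences was -0.08 with delta72 and -0.09 with WT.

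**Figure D3:**
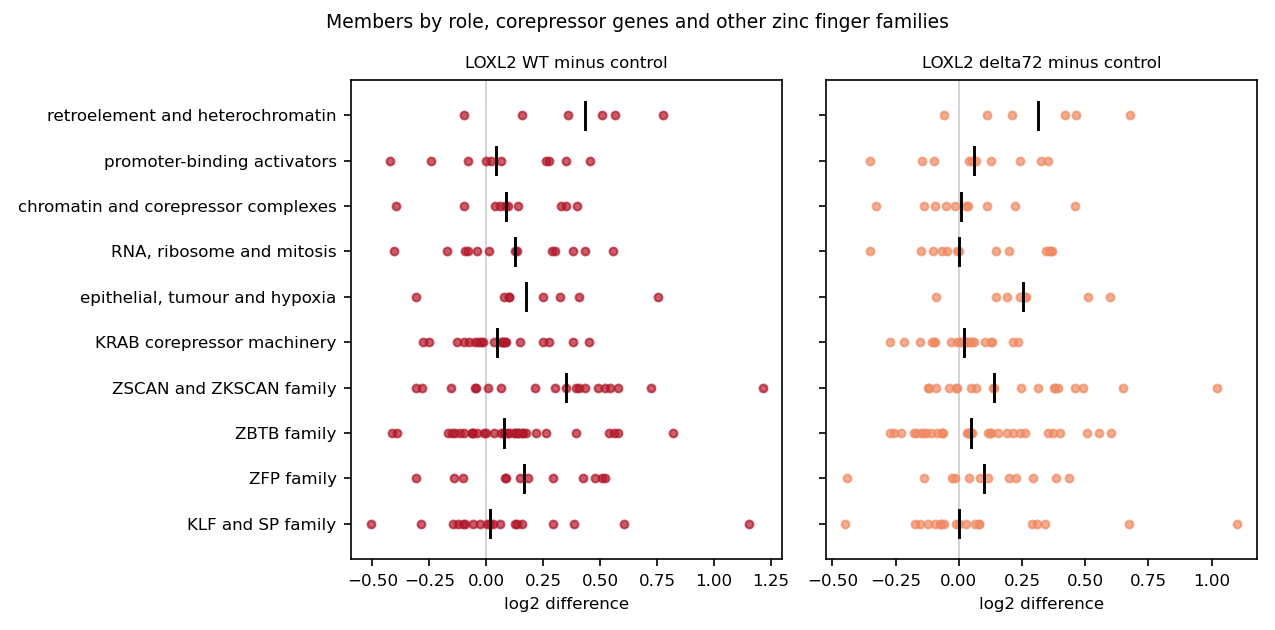
Log2 difference from control (horizontal axis) of each gene above the limit (points) and the median (black bar) for 5 role lists of numbered ZNF genes, the KRAB corepressor genes and 4 other zinc finger families, with LOXL2 WT on the left and LOXL2 delta72 on the right. Each gene is shown by its brightest probe set. The retroelement and heterochromatin list has the highest WT median of the role lists, 0.43, and the KRAB corepressor genes have a WT median of 0.05.

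The genes of the KRAB corepressor machinery had a median difference of 0.02 with delta72 and 0.05 with WT over 20 of 21 listed genes. Single genes lay on both sides of control, from -0.27 to 0.23 with delta72 and from -0.28 to 0.45 with WT. Of the 20 genes, 0 reached 1.5-fold. Over all genes 1.28% were higher and 0.499% lower by that much with delta72, and 1.85% and 0.867% with WT. TRIM28, the scaffold that KRAB domains bind, read log2 9.27 with delta72, 9.27 with WT and 9.24 in control. SETDB1 was 0.27 below control with delta72 and 0.28 below control with WT, with SDs of 0.07 and 0.09 between probe sets. ATF7IP, which stabilises SETDB1, was 0.23 and 0.45 above control, with larger SDs of 0.21 and 0.57. TASOR, a subunit of the HUSH silencing complex, was 0.13 and 0.38 above control, with SDs of 0.26 and 0.27.

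Other zinc finger families were set beside the numbered ZNF genes. The ZSCAN and ZKSCAN genes, which pair a SCAN dimerisation domain with fingers, had medians of 0.14 with delta72 and 0.35 with WT over 19 genes. The ZFP genes had medians of 0.10 and 0.17 over 12. The ZBTB genes, with a BTB domain, had 0.05 and 0.08 over 33, and the KLF and SP factors, which bind GC boxes, had -0.00 and 0.02 over 19. The numbered ZNF genes, at 0.10 and 0.15, thus lay between the families, and no difference between families was tested.

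Place on the genome was the next description. The 123 members on chromosome 19 had medians of 0.10 with delta72 and 0.15 with WT, and the 168 on other chromosomes had 0.10 and 0.14. The 801 other genes of chromosome 19 had medians of -0.02 with delta72 and -0.07 with WT, and 44.9% and 32.3% of them were above control. At least 1.5-fold higher with WT were 10 of the 123 members and 3 of the 801 other genes, 0.375%. With delta72 the counts were 7 of 123 and 4 of 801, 0.499%.

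Members that neighbour each other were then grouped, a grouping chosen after their values had been seen. A run was an unbroken stretch of protein-coding zinc finger genes in the RefSeq order with at least 4 members. There were 16 runs holding 101 members, 11 of the runs on chromosome 19. The run median was above 0 in 14 runs with delta72 and in 15 with WT. Of all 291 members 66.3% were above control with delta72 and 67.4% with WT, with medians of 0.10 and 0.15. Runs were not set against other groupings of members, so this count is not a result about neighbouring genes. Run medians ranged from -0.03 to 0.65 with delta72 and from -0.11 to 0.54 with WT.

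All 5 members of the run from ZNF554 to ZNF77 on chromosome 19 were above control on both LOXL2 arrays. ZNF77, a gene with a KRAB domain, read log2 7.68 with delta72, 7.78 with WT and 7.01 in control. ZNF57 read 7.80 with delta72, 7.78 with WT and 7.11 in control, or 0.69 ± 0.19 with delta72 and 0.67 ± 0.09 with WT over 2 probe sets. For ZNF57 the median of the differences of both probe sets was 0.55 with delta72 and 0.61 with WT. ZNF555 was 0.65 higher with delta72 and 0.53 with WT, ZNF554 was 0.57 and 0.37 higher, and ZNF556 was 0.14 and 0.28 higher. Every gene of the run but ZNF57 rests on 1 probe set above the limit. ZNF554 and ZNF556 were dim, with mean levels of log2 5.62 and 5.60 over the arrays. The run median was 0.65 with delta72 and 0.53 with WT, and the control array was the lowest for every gene of the run.

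The promoters of this run, 3 of which are printed above, held many CCAAT letters, a feature looked for after the run had been noticed. In the window from 250 bases before to 50 bases after the start, ZNF77 had 6 copies, ZNF555 and ZNF556 had 5 each, ZNF57 had 4 and ZNF554 had 2, counting both strands. A further RefSeq start of ZNF57 had 1 copy. At least 4 copies were found in 11 of 328 windows of 253 members, 3.35%, against 203 of 14080 windows of other genes, 1.44%. The 11 include windows of ZNF77, ZNF555, ZNF556 and ZNF57, the run that prompted the count, and more than 1 window of ZNF689. At least 3 copies were found in 16 member windows, 4.88%, against 600 windows of other genes, 4.26%. The longer letters CCAATCA occurred at least 3 times in 3 member windows, 0.915%, against 16 windows of other genes, 0.114%. The 3 were those of ZNF556, ZNF57 and ZNF77, all of this run. Members outside the run with as many CCAAT copies did not all read above control. ZNF263, with 5 copies, was 0.24 higher with delta72 and 0.26 higher with WT, while ZNF862, with 4 copies, read log2 5.72 with delta72, 5.54 with WT and 6.04 in control. A match of letters is a description of the window and not a binding site.

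The run from ZNF786 to ZNF746 on chromosome 7 held ZNF425 and ZNF398. Of its 7 members 6 were above control on both arrays, with a run median of 0.39 with delta72 and 0.49 with WT. ZNF777 was 0.39 ± 0.17 higher with delta72 and 0.47 ± 0.12 higher with WT over 2 probe sets, and ZNF282, first described as binding the long terminal repeat of a human retrovirus, was 0.02 and 0.06 below control. The starts of ZNF425 and ZNF398 lie 84 bases apart on opposite strands, and the 83 bases between them, printed above, are 78.3% G and C with 2 copies of the GC box letters. Of the 4 divergent pairs of members with starts at most 1000 bases apart, it was the pair with the largest differences for both genes. In the pair ZNF668 and ZNF646, ZNF668 was 0.38 higher with each form, with a median over its probe sets of 0.03 in each, while ZNF646 was 0.10 lower with delta72 and 0.07 lower with WT.

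On chromosome 12 the run from ZNF605 to ZNF268 had a median of 0.39 with delta72 and 0.47 with WT. ZNF140 and ZNF10 were its highest members. ZNF84 read log2 8.63 with delta72, 8.63 with WT and 8.17 in control, with medians of its probe set differences of 0.28 with delta72 and 0.31 with WT. ZNF268 read 6.76 with delta72, 6.93 with WT and 6.44 in control, whereas ZNF605 was level at 6.10, 6.14 and 6.17 on the same arrays. The run from ZNF302 to ZNF30, with ZNF181 in it, had a median of 0.39 with delta72 and 0.54 with WT. The run from ZNF613 to ZNF836 was the lowest with WT, with medians of -0.02 with delta72 and -0.11 with WT. The 16 members of the run from ZNF283 to ZNF180 had medians of 0.18 and 0.14 and were spread on both sides of 0.

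**Figure D4:**
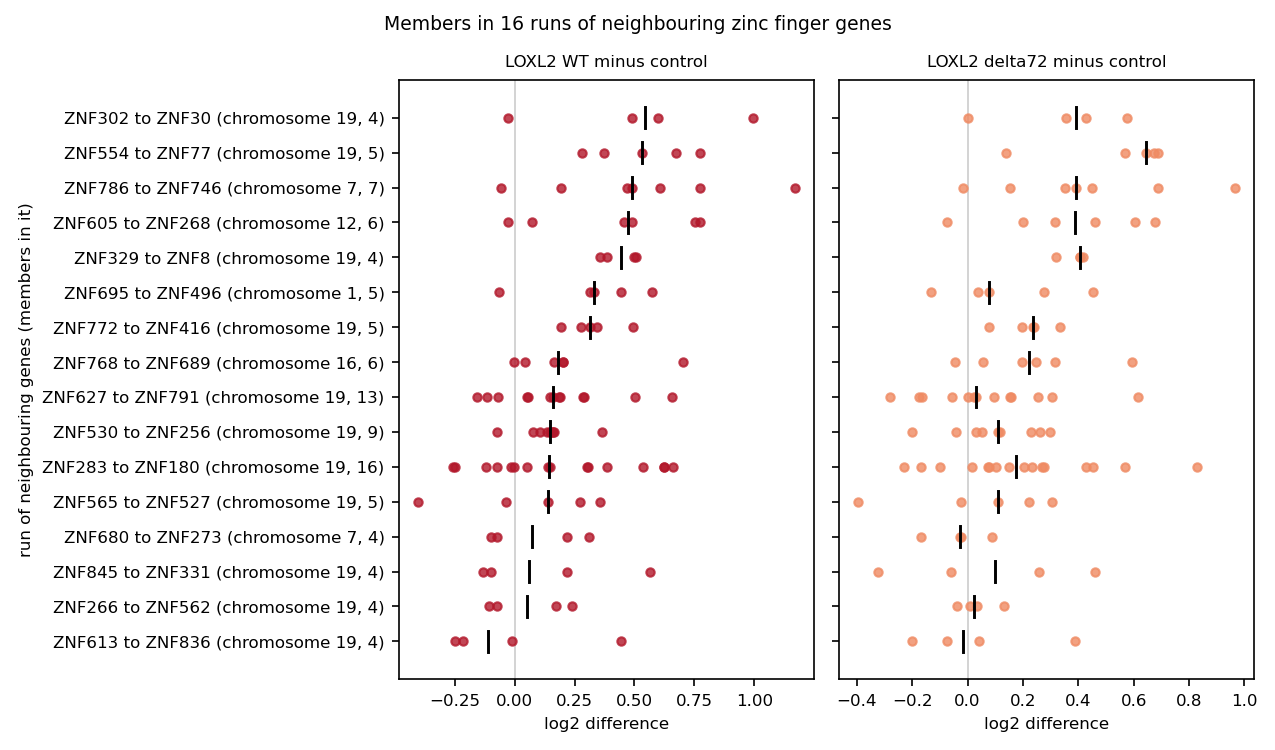
Log2 difference from control (horizontal axis) of the members (points) of 16 runs of neighbouring zinc finger genes, with the run median as a black bar, for LOXL2 WT on the left and LOXL2 delta72 on the right. In the run from ZNF554 to ZNF77 all 5 members lie right of 0 in both panels, and in the run from ZNF613 to ZNF836 the WT median lies left of it.

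Several properties moved with the result and are given with their values. The 12232 genes were split into 5 equal groups by mean level, and the members had a higher median than the other genes in each. From the dimmest to the brightest group the member medians with WT were 0.08, 0.17, 0.19, 0.06 and 0.15, against -0.08, -0.04, 0.02, 0.04 and 0.01 for the other genes. With delta72 they were 0.08, 0.12, 0.16, 0.05 and 0.11, against -0.05, -0.02, 0.02, 0.03 and 0.01. The 5 groups held 69, 102, 67, 41 and 12 members, so most members were of low to middle level. The background probe sets, which match no transcript, differed by number of G and C bases. With 24 such bases they read log2 8.63 with delta72, 8.48 with WT and 8.77 in control, while those with 10 read 2.47 with delta72, 2.48 with WT and 2.47 in control. The base composition of the members' own probes was not analysed here, and its part in the result was not tested. The actin probe sets, a sign of RNA integrity, had a 3' minus 5' difference of 1.32 with delta72, 1.46 with WT and 1.26 in control, while for GAPDH it was 0.002 with delta72, 0.0029 with WT and -0.0058 in control. Their part in the result was not tested.

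**Figure D5:**
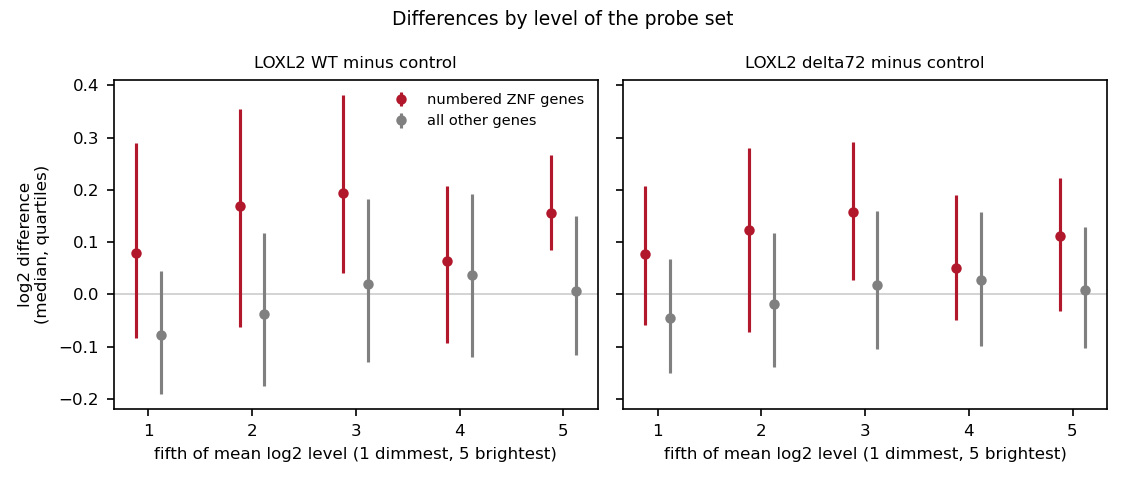
Median log2 difference from control with quartiles (vertical axis) in 5 groups of equal size by mean log2 level (horizontal axis, 1 dimmest, 5 brightest), for numbered ZNF genes in red and all other genes in grey, with LOXL2 WT on the left and LOXL2 delta72 on the right. The red median is above the grey one in every group, and in the fourth group they lie closest, at 0.06 and 0.04 with WT.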

How the data were processed

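Expression was measured on 3 arrays, 1 per condition. The authors deposited 1 table of log2 intensities for 49395 probe sets, read as log2 because all values lay between 2.07 and 14.56. Partek and Affymetrix Expression Console are named, with no version, by the submitters' processing notes. How arrays were normalized, and whether background was corrected, is not given in the sources used here. Either could compress the differences of dim probe sets. Genes were named from the 44988 probe sets with a single symbol, leaving out 102 controls, 1832 probe sets with several symbols and 2473 unlisted ones. Python 3.11.15, pandas 2.3.3, numpy 2.4.6 and statsmodels 0.14.6 were used.

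The members and gene lists were chosen with earlier results of these data known, and the level groups, neighbour runs, divergent pairs and CCAAT counts after values had been seen. Named genes were the 10 highest and 10 lowest per comparison whose median over probe sets had the same sign, in each direction the 5 with the largest shared difference of both forms, up to 4 per list, the genes next to the limit and LOXL2. ZNF143, ZNF331 and ZNF750 of the role lists and genes named for a run, an antisense partner, a divergent pair, probe set disagreement or CCAAT letters were chosen after their values were seen. Alternatives were a shift to a common median, quantile normalization, a lowess correction, each array's median level over a gene's probe sets, no filter, a 60th percentile filter and leaving out cross-hybridising probe sets. The counting was tested on simulated data. Names, order and promoters came from RefSeq (GRCh38.p14), in which all 291 symbols matched and 253 members had a promoter window. Classes by protein sequence were not used here. The number of arrays limits the precision, and no batch information was used.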

Additional observations from a re-analysis of the deposited data

How the results depend on the processing

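The member median with WT, 0.15, was 0.105 after a shift to a common median, 0.127 after quantile normalization, 0.101 with each array's median level over a gene's probe sets and 0.0751 with no filter. With delta72, 0.10, it was 0.070, 0.0878, 0.0718 and 0.0535 under the same alternatives. For delta72 minus WT it was -0.022 after the shift. The member median was also set against the median of all genes under the same alternative. It was higher by 0.104 to 0.153 with WT and by 0.0661 to 0.111 with delta72 in every alternative but the shift. The shift moves all genes alike, so it cannot change this value, which stayed at 0.155 with WT and 0.103 with delta72. Members at least 1.5-fold higher with delta72 numbered 8 of 207 under the 60th percentile filter, 3.86%, against 1.36% of the 9151 genes then tested. Members 1.5-fold lower numbered 1 for delta72 minus WT under quantile normalization and under lowess, 1 for WT under lowess and under that median level, and 1 for delta72 with no filter. ZNF365 turned to -0.048 with delta72 under that median level, whereas the median of its probe sets' differences stayed above 0, at 0.06. Of 383 values of named genes per comparison, 25 moved in each by more than the pooled SD between probe sets, mostly with the choice of probe set. No paired analysis was possible because each condition had 1 array and the labels give no replicate numbers, and for the same reason no replicate could be left out. Dim members near the limit have little signal over background.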

Other observations

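An antisense gene moved apart from its ZNF partner. ZNF436-AS1 read log2 7.94 with delta72, 7.39 with WT and 8.47 in control, which is 0.54 below control with delta72 and 1.09 below control with WT, with an SD of 0.48 between probe sets for WT. ZNF436 itself read 5.73 with delta72, 5.73 with WT and 5.52 in control, 0.21 above control with each form. ZNF407-AS1 differed from control by -0.05 with delta72 and 0.02 with WT, and ZNF407 by -0.02 and 0.02.

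Promoter letters that set the numbered ZNF genes apart from other genes were counted over 328 member windows. The ETS factor letters CCGGAAG occurred on either strand in 33.2% of member windows and in 15.7% of other windows, and the ZNF143 core letters ACTACAA in 8.84% and 3.10%. CCAAT occurred in 43.3% and 34.4%, and the GC box letters GGGCGG in 64.6% and 64.7%. The 100 members with the ETS letters had a median difference of 0.12 with delta72 and 0.15 with WT, against 0.07 and 0.15 for the 153 without them. Members with CCAAT had a median of 0.09 with delta72 and 0.16 with WT, against 0.11 and 0.14 without it. No overlap between the letters was removed, and no difference was tested.

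ZSCAN12, a zinc finger gene with a SCAN domain outside the numbered ZNF genes, read log2 6.05 with delta72, 6.24 with WT and 5.03 in control. KLF10, a gene induced by TGF-beta, read 9.43 with delta72, 9.49 with WT and 8.33 in control, and its 2 probe sets differed by an SD of 0.01 in the WT difference. Both were higher than control on each LOXL2 array by at least 2-fold. For ZSCAN12 this rests on a single probe set above the limit, out of 3, and its control reading lay under the limit of log2 5.27.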
